A study of Mus musculus with 6 samples.

Results

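The mRNA levels of 10 genes that carry de novo lipogenesis and its NADPH supply were examined in livers of *Asgr1*-/- mice and WT controls. The 10 genes are *Acly*, *Acss2*, *Acaca*, *Acacb*, *Fasn*, *Scd1*, *Thrsp*, *Me1*, *G6pdx* and *Pgd*, taken by symbol from the 55401 genes of the deposited expression table, and all 10 passed the filter on low expression together with 10167 genes in all. RNA-Seq was performed on 1 liver from each of 6 male mice on the C57/BL6 background, 3 WT and 3 *Asgr1*-/-, aged 13 weeks and with both genotypes fasted overnight before collection. The knockout line was made by CRISPR/Cas9 with a pair of guide RNAs, crossed to C57BL/6 to dilute off-target edits, and WT and knockout littermates came from heterozygous parents. *Asgr1* encodes the major subunit of the hepatocyte asialoglycoprotein receptor, and its deletion was whole-body, so these livers do not isolate the hepatocyte's own loss of the receptor.

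De novo lipogenesis builds fatty acids in the cytosol from acetyl-CoA, which ATP citrate lyase makes from citrate and acetyl-CoA synthetase makes from acetate. Acetyl-CoA carboxylase turns it into malonyl-CoA, fatty acid synthase extends the chain to palmitate at the cost of NADPH, and stearoyl-CoA desaturase introduces the first double bond. In the liver the pathway is known to be driven by insulin through SREBP-1c and by glucose through ChREBP, and to be shut down by fasting.

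The libraries held between 19842637 and 22080809 gene counts each, and levels are given below as CPM, read counts set to a common library size with edgeR's TMM factors. *Asgr1* itself was at 808, 752 and 585 CPM in WT livers 1, 2 and 3 and at 2.72, 1.98 and 1.76 CPM in *Asgr1*-/- livers 1, 2 and 3, so every library matched its labelled genotype. All 10 hepatocyte markers examined were expressed, and together they took between 86277 and 105951 CPM per liver. Of 8 adipocyte markers, *Adipoq* and *Plin1*, which define fat cells, stayed at or below 0.245 CPM in every liver and *Lep* was at 0. The 8 summed to between 43.2 and 64.5 CPM, mostly from *Lipe*. *Cidec*, *Fabp4* and *Cfd* reached 15.5, 9.93 and 4.78 CPM. *Lipe* was at 36.9, 36.6 and 40.3 CPM in WT livers and 23.6, 25.6 and 26.5 CPM in *Asgr1*-/- livers. The genotypes did not overlap for *Lipe* (edgeR adjusted p = 0.0623, DESeq2 adjusted p = 0.00179). The 12 Kupffer cell and macrophage markers were uneven among WT livers, summing to 95.002, 262 and 869 CPM in WT livers 1, 2 and 3 and to 336, 268 and 212 CPM in *Asgr1*-/- livers 1, 2 and 3. In the same order, 6 cholangiocyte markers summed to 38.9, 39.1 and 51.8 CPM in WT and 51.3, 59.1 and 64.3 CPM in *Asgr1*-/- livers. For the 3 of them that passed the filter, the median log2 CPM relative to the WT mean did not overlap between genotypes. It was -0.75, -0.04 and 1.16 in WT and 1.23, 1.40 and 1.44 in *Asgr1*-/- livers. Lymphocyte markers, 8 in all, summed to 19.2, 15.7 and 36.0 CPM in WT and 9.34, 9.46 and 6.41 CPM in *Asgr1*-/- livers. Since whole liver was sequenced, fewer cells of a type and less RNA per cell cannot be told apart in any value below. The labels do not state how the livers were grouped for extraction or sequencing, and p-values measure the spread between these 6 mice.

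None of the 10 genes was called changed in edgeR's quasi-likelihood test, where a call needed a fold change above 1.5 and a Benjamini-Hochberg adjusted p under 0.05. Over all tested genes 30 were called, a background of 0.295%. At an unadjusted p under 0.05, *Fasn* was higher and *Acss2* was lower, 1 gene in each direction, where 7.29% of all tested genes were higher and 8.2% lower by the same rule. The same pair were the genes whose livers did not overlap between genotypes, 2 of 10, which is close to the 21.9% of all tested genes without overlap. DESeq2 gave *Acss2* and *Fasn* an adjusted p of 0.0393 and 0.0464, so 2 of 10 passed its adjusted threshold against a background of 3.9%, and *Acss2* alone also passed the fold threshold, where 2.44% of all genes did. With edgeR run on every gene with a count, without the filter on low expression, *Acss2*, *Fasn* and *Thrsp* passed the adjusted p, 3 of 10 against 2.5% of genes. That 2.5% is over 24757 genes, most of them below the filter that all 10 genes passed, so the shares are not alike. The share among the 10167 filtered genes in that run was not computed. The log2 fold change was positive for 6 of 10, against 46.7% of tested genes. The median log2 fold change of the 10 genes was 0.22, and that of all tested genes was -0.02.

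**Figure D1:**
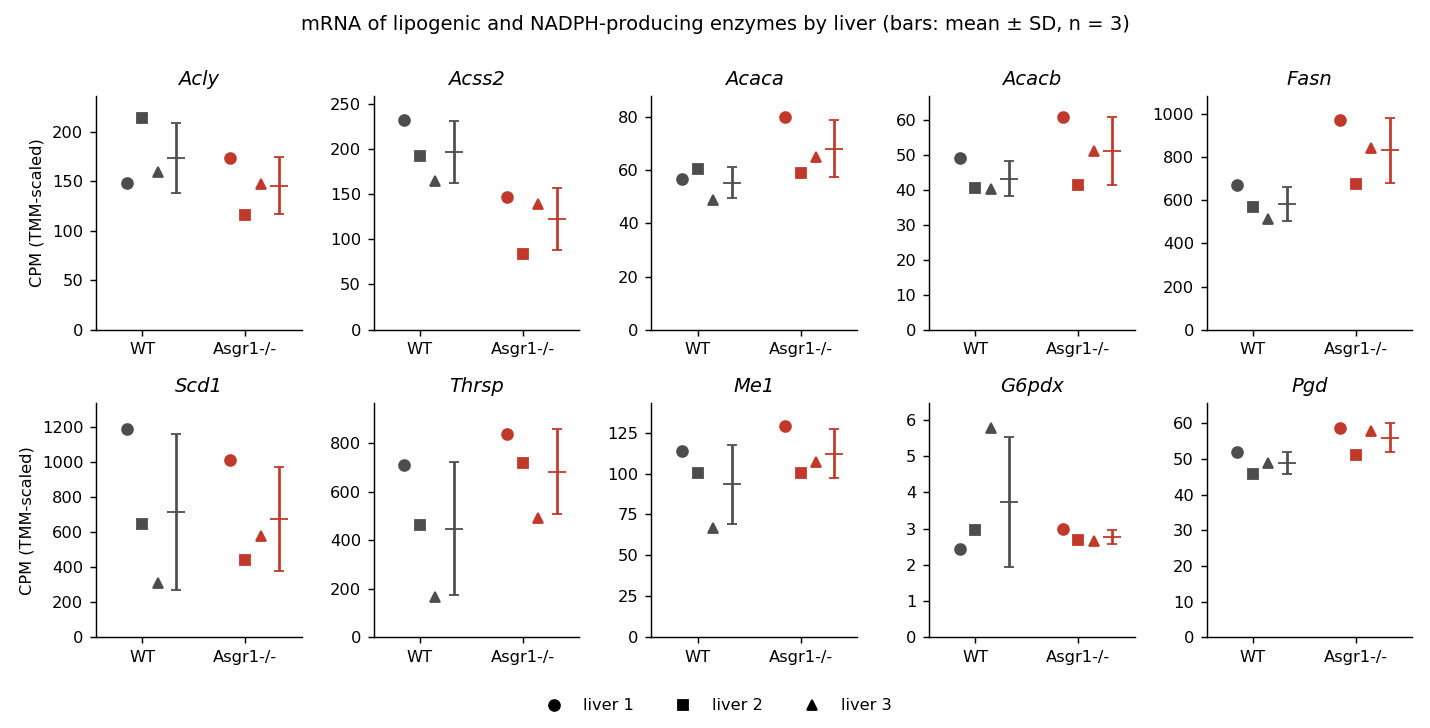
TMM-scaled CPM on a linear axis from 0 for each of the 10 genes, with 1 point per liver and the mean ± SD (n = 3) beside each genotype. The 3 WT livers lie above the 3 *Asgr1*-/- livers for *Acss2* and below them for *Fasn*, while the other 8 genes overlap between genotypes.

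The stretches just upstream of the RefSeq start are shown for *Fasn* and *Acss2*, since these genes differed most between genotypes by p-value and in opposite directions. Both are from RefSeq on GRCm38.p6 and are read 5′ to 3′ on the gene's strand, *Fasn* at chr11:120824548-120824797 on the minus strand and *Acss2* at chr2:155517793-155518042 on the plus strand. Capitals mark exact matches, on either strand, to the CCAAT box (CCAAT) or the GC box (GGGCGG).
Fasn: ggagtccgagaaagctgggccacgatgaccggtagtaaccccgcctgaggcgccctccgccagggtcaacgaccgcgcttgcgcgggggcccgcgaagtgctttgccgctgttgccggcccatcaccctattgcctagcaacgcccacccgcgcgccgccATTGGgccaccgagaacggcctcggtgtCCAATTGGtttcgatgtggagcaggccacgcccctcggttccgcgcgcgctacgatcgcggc
Acss2: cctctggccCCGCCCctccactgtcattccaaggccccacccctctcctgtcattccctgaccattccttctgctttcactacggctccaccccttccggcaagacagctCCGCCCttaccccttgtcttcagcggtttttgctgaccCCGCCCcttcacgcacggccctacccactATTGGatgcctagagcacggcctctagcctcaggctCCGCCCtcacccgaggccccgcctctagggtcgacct
The *Fasn* stretch held 3 CCAAT matches, of which the inner pair overlap each other, and no GC box. The *Acss2* stretch held 1 CCAAT match and 4 GC boxes. The *Acss2* gene span given below begins inside this stretch, at 155517948. The CCAAT match and the GC box nearest the RefSeq start lie past that point, within the annotated gene. Over windows that also took in the first bases after the start, and which were found for 9 of the 10 genes, CCAAT matched in 7 of 9 genes and in 37.4% of all 32851 RefSeq windows, and GGGCGG matched in 5 of 9 genes and in 35.7% of windows. A gene was counted if any of its windows matched, and *Pgd* and *Me1* had more than 1, so shares per gene and per window are not alike. The E box CACGTG, to which USF and ChREBP-MLX bind, matched in 0 of 9 genes and 7.15% of windows, and a sterol regulatory element of the form TCACNCCAC matched in 0 of 9 and 1.24%. TATAAA matched in 1 of 9, *Acacb*, and in 13.6% of windows. The only CCAAT match of *Me1* was in a window at chr9:86687228-86687527, inside the gene. The *Acaca* window (chr11:84195188-84195487) and the *Acacb* window (chr5:114165268-114165567) also lay inside the gene spans given below, away from the annotated 5′ ends. The only *G6pdx* window (chrX:74428831-74429130) and 1 of the *Pgd* windows (chr4:149166033-149166332) lay inside their gene spans as well.

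The acetyl-CoA step was examined first. *Acss2*, the cytosolic acetyl-CoA synthetase (chr2:155517948-155585724, plus strand, GRCm38), was at 232, 192 and 164 CPM in WT livers and at 146, 83.5 and 139 CPM in *Asgr1*-/- livers. All 3 *Asgr1*-/- livers were below all 3 WT livers, with *Asgr1*-/- liver 2 the lowest. The edgeR log2 fold change was -0.67 (SE 0.21), equal to 1.596-fold lower, with a 95% interval of the fold from 0.451 to 0.871, an unadjusted p of 0.0105 and an adjusted p of 0.184. The direction held in all 17 alternative settings, between -0.81 and -0.45. In the annotation *Acss2* shares 395 exonic bases, 3.89% of its exonic length, with *Gss* on the opposite strand, which was at 106 to 135 CPM with a log2 fold change of 0.13, and whether counting used strand is not given in the sources used here.

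*Acly*, which encodes ATP citrate lyase (chr11:100476353-100528000, minus strand), was at 148, 214 and 159 CPM in WT livers and 174, 116 and 147 CPM in *Asgr1*-/- livers. The genotypes overlapped, with the highest value in WT liver 2 and the lowest in *Asgr1*-/- liver 2. Its log2 fold change was -0.26 (SE 0.18, edgeR adjusted p = 0.531), with a 95% interval from -0.66 to 0.15.

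The acetyl-CoA carboxylases make the malonyl-CoA that both feeds chain growth and inhibits mitochondrial fatty acid import. *Acaca* (chr11:84129672-84401651, plus strand), the cytosolic form that supplies synthesis, was at 56.7, 60.6 and 48.9 CPM in WT livers and 80.1, 59.2 and 65.0 CPM in *Asgr1*-/- livers. Only *Asgr1*-/- liver 2 fell within the WT range. The log2 fold change was 0.30 (SE 0.14, edgeR adjusted p = 0.345). *Acacb* (chr5:114146535-114250761, plus strand), the form tied to mitochondria, was at 49.2, 40.4 and 40.3 CPM in WT livers and 60.9, 41.4 and 51.1 CPM in *Asgr1*-/- livers. Again *Asgr1*-/- liver 2 was the one inside the WT range, and the log2 fold change was 0.24 (SE 0.16, edgeR adjusted p = 0.493).

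*Fasn*, fatty acid synthase itself (chr11:120805846-120824547, minus strand), was at 671, 568 and 513 CPM in WT livers and at 974, 675 and 845 CPM in *Asgr1*-/- livers. The genotypes did not overlap, although *Asgr1*-/- liver 2 lay only just above WT liver 1. The log2 fold change was 0.51 (SE 0.16), equal to 1.42-fold higher, with a 95% interval of the fold from 1.11 to 1.82, an unadjusted p of 0.0103 and an edgeR adjusted p of 0.184. The direction held in all 17 alternative settings, between 0.39 and 0.65. When the deposited FPKM values were compared in place of TMM-scaled CPM, *Acaca* and *Pgd* joined *Fasn* as genes whose *Asgr1*-/- livers all lay above WT, which made 4 of 10 without overlap including *Acss2*, where 22.9% of all tested genes did not overlap on FPKM.

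*Scd1* and *Thrsp* varied more among WT mice than the other 8 genes. *Scd1* (chr19:44394455-44407879, minus strand), the main hepatic desaturase that makes oleate, was at 1194, 646 and 310 CPM in WT livers and 1013, 439 and 580 CPM in *Asgr1*-/- livers. WT livers 1 and 3 spanned 3.85-fold and enclosed every *Asgr1*-/- liver. The SD of log2 CPM in WT was 0.97, larger than that of 98.7% of tested genes, and the median over genes was 0.19. With that spread the log2 fold change was -0.08 (SE 0.44, edgeR adjusted p = 0.951) with a 95% interval of the fold from 0.476 to 1.88, so a change approaching 2-fold in either direction was not detectable here. Leaving out 1 liver at a time moved it between -0.48 and 0.50, the latter without WT liver 1. The related genes *Scd2*, *Scd3* and *Scd4* stayed at or below 5.94 CPM in every liver.

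*Thrsp* (chr7:97412938-97417730, minus strand) encodes Spot 14, a small protein induced by thyroid hormone and carbohydrate that promotes lipogenesis. It was at 711, 463 and 165 CPM in WT livers and 837, 719 and 491 CPM in *Asgr1*-/- livers. The 3 WT livers spanned 4.31-fold, and *Asgr1*-/- liver 3 lay inside their range. The log2 fold change was 0.61 (SE 0.42, edgeR adjusted p = 0.524), the highest of the 10 genes, and it was 1.12 without WT liver 1 and 0.22 without WT liver 3. WT liver 3, which had the lowest *Scd1* and *Thrsp* of all 6 livers, was also the liver with the most Kupffer cell marker counts, 869 CPM, and WT liver 1, with the highest *Scd1*, had the fewest, 95.002 CPM. Among *Asgr1*-/- livers this did not hold, since liver 1 had the most Kupffer cell marker counts of its genotype, 336 CPM, and also the highest *Scd1* and *Thrsp*. The part of other cells in the *Scd1* and *Thrsp* values was not tested. Without WT liver 3, the median log2 fold change of the Kupffer cell markers turned from -0.64 to 0.62.

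Among the NADPH producers, *Me1* (chr9:86581371-86695953, minus strand), cytosolic malic enzyme, was at 114, 100.2 and 66.6 CPM in WT livers and 129, 100.5 and 107 CPM in *Asgr1*-/- livers. WT liver 3 was the lowest, WT liver 2 lay just below the lowest knockout liver, and WT liver 1 lay within the knockout range. The log2 fold change was 0.26 (SE 0.19, edgeR adjusted p = 0.535). *Pgd* (chr4:149149991-149166771, minus strand), 6-phosphogluconate dehydrogenase of the pentose phosphate pathway, was at 52.1, 45.7 and 49.0 CPM in WT livers and 58.8, 51.2 and 57.8 CPM in *Asgr1*-/- livers. *Pgd* was the steadiest of the 10 genes within WT, with an SD of 0.093 on the log2 scale, and *Asgr1*-/- liver 2 again overlapped WT. Its log2 fold change was 0.19 (SE 0.11, edgeR adjusted p = 0.425).

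*G6pdx* (chrX:74409483-74429194, minus strand), glucose-6-phosphate dehydrogenase, which opens the pentose phosphate pathway, was by far the weakest signal, with 48 to 116 reads per liver. It was at 2.44, 2.97 and 5.79 CPM in WT livers and 2.98, 2.68 and 2.64 CPM in *Asgr1*-/- livers. WT liver 3 stood above the other 5 livers, which lay close together. The log2 fold change of -0.43 (SE 0.34, edgeR adjusted p = 0.572) rested on that liver, and it was 0.03 without it. WT liver 3 also had the most Kupffer cell marker counts, 869 CPM. Within each genotype the livers ranked alike in *G6pdx* and in those marker counts. The part of other cells in the *G6pdx* values was not tested. The gene's mean FPKM of 1.05 was just above the minimum of 1 for testing. Moreover, 418 exonic bases of *G6pdx*, 13.6% of its exonic length, overlap *Ikbkg* on the opposite strand, which was at 66.3 to 81.7 CPM, so reads of the shared stretch cannot be assigned without strand. *G6pd2*, its close copy, had 0 counts in every liver.

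The transcripts differed widely in abundance per length, for which the deposited FPKM was used. In WT livers the order of mean FPKM ran from *Thrsp* at 199 ± 121 (SD, n = 3) through *Scd1* at 143 ± 88.6, *Fasn* at 52.3 ± 6.83, *Acly* at 32.3 ± 6.30, *Me1* at 23.8 ± 5.95 and *Acss2* at 18.9 ± 3.18. Below them came *Pgd* at 7.44 ± 0.515, *Acacb* at 4.41 ± 0.504, *Acaca* at 3.18 ± 0.306 and *G6pdx* at 1.19 ± 0.592. Neighbours whose WT livers overlapped were *Thrsp* with *Scd1*, *Acly* with *Me1* and *Me1* with *Acss2*. In *Asgr1*-/- livers the order was the same except that *Me1*, at 29.8 ± 4.35 FPKM, stood before *Acly* at 28.1 ± 5.86, and those neighbours overlapped. *Scd1* with *Fasn*, *Acss2* with *Pgd* and *Acacb* with *Acaca* also overlapped there. The summed FPKM of the 10 genes was 711, 482 and 264 in WT livers and 806, 562 and 512 in *Asgr1*-/- livers, a sum carried mostly by *Thrsp* and *Scd1*, and the genotypes overlapped.

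**Figure D2:**
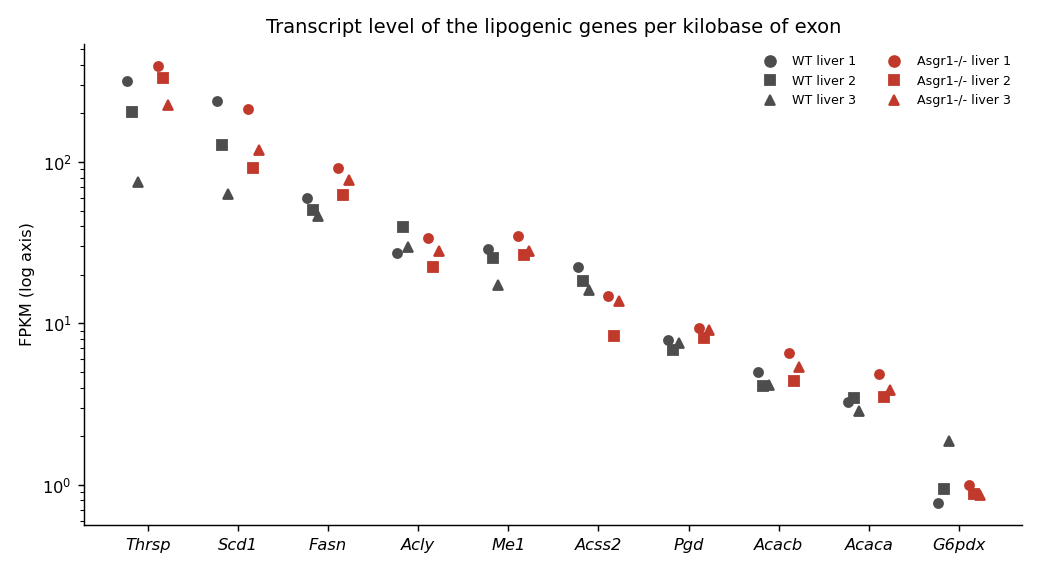
Deposited FPKM on a log axis for the 10 genes, ordered by their WT mean, with 1 point per liver. *Thrsp* and *Scd1* lead in both genotypes and spread widest in WT, and *G6pdx* is near 1 FPKM in all livers but WT liver 3.

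The spread among *Asgr1*-/- livers was arranged differently. *Asgr1*-/- liver 2 had the lowest value of its genotype for *Acly*, *Acss2*, *Acaca*, *Acacb*, *Fasn*, *Scd1*, *Me1* and *Pgd*, and *Asgr1*-/- liver 1 the highest for all 10 genes. For *Acss2* the SD of log2 CPM in *Asgr1*-/- was 0.44, larger than that of 97.0% of tested genes, and for *Scd1* it was 0.61, larger than that of 98.9%, against a median over genes of 0.14. The 10 genes together took 0.151% to 0.316% of all counts in WT livers and 0.233% to 0.359% in *Asgr1*-/- livers.

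Ratios of read counts within a liver do not depend on the scaling between libraries. Of the 45 ratios among the 10 genes, 12 (26.7%) did not overlap between genotypes, beside 21.8% of all 51040356 pairs of tested genes, so the share was near the background. The genes counted most often among the 12 were *Acss2*, in 6, and *Fasn*, in 4. The ratio of *Acss2* to *Fasn* counts was 0.346, 0.338 and 0.320 in WT livers and 0.150, 0.124 and 0.164 in *Asgr1*-/- livers. It was tight in WT, and each *Asgr1*-/- liver was below it by more than the whole WT range. The mean was 2.31-fold lower in *Asgr1*-/- livers (log2 difference -1.21, two-sided exact permutation test p = 0.1, the smallest that 3 against 3 allows, 0.375 adjusted over the 45 ratios). The ratio of *Acly* to *Fasn* was 0.221, 0.377 and 0.310 in WT livers and 0.178, 0.172 and 0.174 in *Asgr1*-/- livers, and so was almost constant across the knockout livers. The ratio of *Scd1* to *Thrsp* was 1.68, 1.40 and 1.88 in WT livers and 1.21, 0.611 and 1.18 in *Asgr1*-/- livers, without overlap even though each gene alone varied several-fold in WT. These 3 ratios were chosen after their values were seen and are a description.

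**Figure D3:**
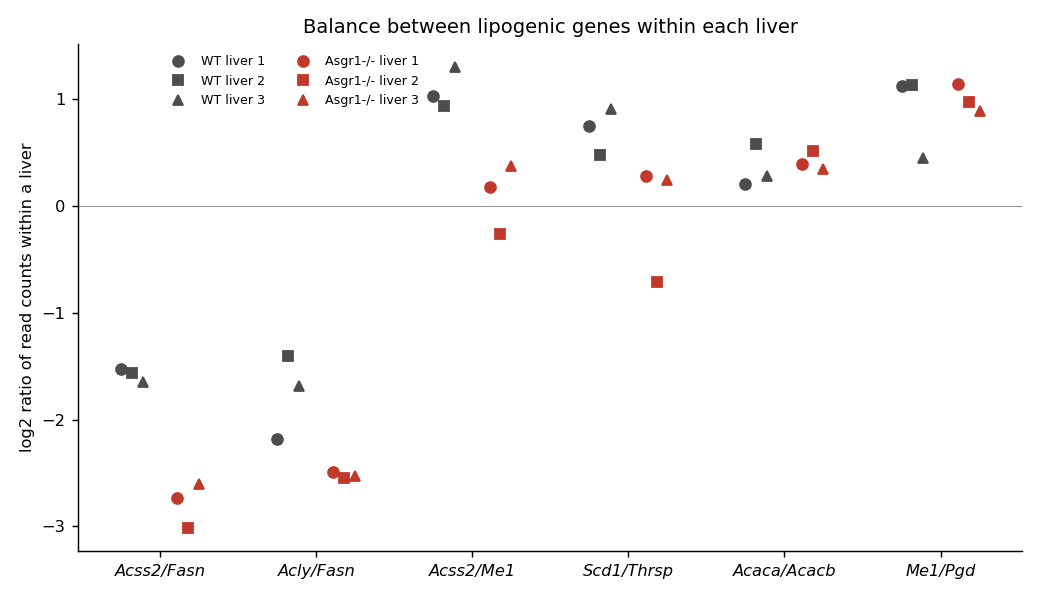
Log2 ratio of read counts within each liver for 6 gene pairs, with 1 point per liver. The ratios of *Acss2* to *Fasn*, *Acly* to *Fasn*, *Acss2* to *Me1* and *Scd1* to *Thrsp* are lower in all 3 *Asgr1*-/- livers than in any WT liver, while *Acaca* to *Acacb* and *Me1* to *Pgd* overlap.

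The steps next to the pathway were examined in the same test. Of 18 genes for citrate and acetate supply, malonyl-CoA turnover and the steps after palmitate, 13 were tested, 1 fell and 0 rose by adjusted p, and their median log2 fold change was 0.00. The gene that fell was *Fads2*, the delta-6 desaturase of polyunsaturated fatty acids, at 650 ± 33.5 CPM in WT livers and 362 ± 28.5 CPM in knockout livers (SD, n = 3), with a log2 fold change of -0.84 and an edgeR adjusted p of 0.0215. That call was lost without WT liver 2 (adjusted p = 0.0733) and without any single *Asgr1*-/- liver (0.0808 to 0.148), and with limma on log2(FPKM + 0.1) (0.0550). *Elovl6*, which extends the palmitate that *Fasn* makes, was at 38.0 ± 5.56 CPM in WT livers and 70.6 ± 11.04 CPM in knockout livers, a log2 fold change of 0.89 with an edgeR adjusted p of 0.0543, and it passed in 9 of 17 alternative settings. *Fads1*, the delta-5 desaturase, had a log2 fold change of -0.70 (edgeR adjusted p = 0.0570), and *Mid1ip1*, the partner of Spot 14, 0.37 (adjusted p = 0.202), and neither passed. In the 17 alternative settings *Fads1* passed in 4, DESeq2 among them, and *Mid1ip1* in 0. Of 17 further genes of the pentose phosphate pathway and other NADPH routes, 11 were tested and 0 passed by edgeR's adjusted p, 0 at an unadjusted p under 0.05 and 0 by DESeq2. Their log2 fold changes ran from -0.16 to 0.21, with *Tkt*, transketolase, at 0.21, *Pgls*, 6-phosphogluconolactonase, at 0.21 and *Idh2*, the mitochondrial NADP-dependent isocitrate dehydrogenase, at 0.19.

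Among 18 transcriptional regulators and SREBP-processing genes, 16 were tested and 0 passed by edgeR's adjusted p, with 1 higher and 2 lower at an unadjusted p under 0.05 and 1 higher and 2 lower by DESeq2. Over all tested genes 7.29% were higher and 8.2% lower at that unadjusted p, and DESeq2 passed 3.9%. *Srebf1*, which gives SREBP-1c, was at 335 ± 57.0 CPM in WT livers and 361 ± 104 CPM in knockout livers (log2 fold change 0.11, edgeR adjusted p = 0.836), and *Mlxipl*, which encodes ChREBP, was at 508 ± 71.9 and 503 ± 87.1 CPM (-0.01, adjusted p = 0.976). *Insig1*, which holds SREBP in the endoplasmic reticulum and is itself an SREBP target, was at -1.12 (adjusted p = 0.0504). *Insig2*, a paralog with the same anchoring role, was at 0.72 (adjusted p = 0.0568), and *Srebf2*, the SREBP of cholesterol synthesis, was at -0.64 (adjusted p = 0.0756). These results depended on the setting, since *Insig1* passed in 7 of 17 alternatives, *Insig2* in 6 and *Srebf2* in 2, with DESeq2 among them for each. Of 12 genes for the kinases and other controls of carboxylase activity, among them AMPK subunits, 8 were tested and 0 passed by edgeR, at an unadjusted p under 0.05 or by DESeq2.

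**Figure D4:**
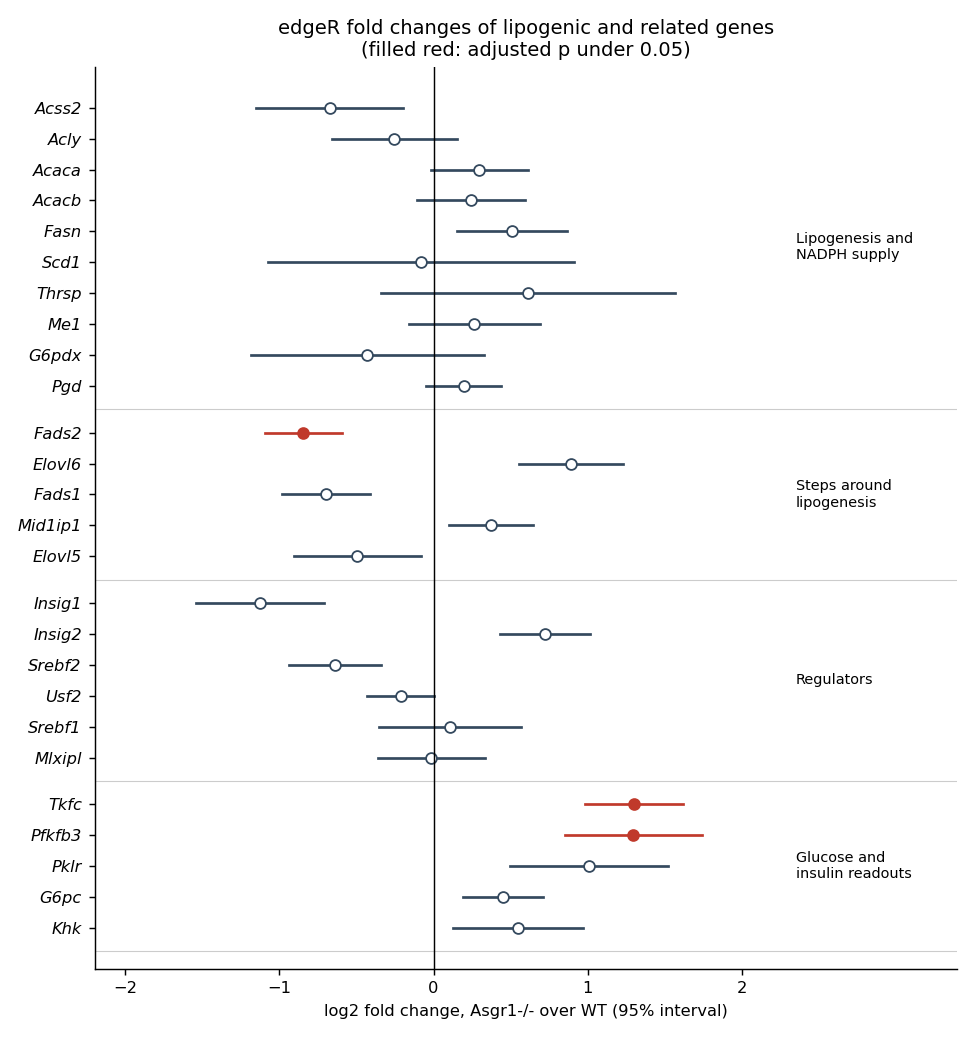
Log2 fold change of *Asgr1*-/- over WT from edgeR with its 95% interval for the 10 lipogenic and NADPH genes and for related genes, filled red where the adjusted p is under 0.05. The intervals of *Scd1* and *Thrsp* are the widest of the 10, and those filled are *Fads2*, *Tkfc* and *Pfkfb3*.

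Genes outside lipogenesis that respond to glucose or insulin were set beside the 10 genes. Of 11 such genes 10 were tested, and 2 rose and 0 fell by edgeR's adjusted p. At an unadjusted p under 0.05, 6 were higher and 1 was lower, where 7.29% of all tested genes were higher and 8.2% lower. DESeq2 passed 4 as higher and 1 as lower, against 3.9% of all genes in either direction. Of the 10, 6 did not overlap between genotypes, against 21.9% of all tested genes. The list mixes genes that glucose or insulin induces with *G6pc*, *Irs2* and *Igfbp1*, which insulin represses, so its median log2 fold change of 0.45 has no single direction of response. *Tkfc*, which handles fructose-derived triose, was at 488 ± 74.5 CPM in WT livers and 1204 ± 107 CPM in knockout livers (log2 fold change 1.30, edgeR adjusted p = 0.00994), and the call was lost without *Asgr1*-/- liver 1 (0.0805) or 3 (0.105). *Pfkfb3*, a regulator of glycolysis, was at 8.95 ± 2.65 and 22.0 ± 1.31 CPM (1.30, adjusted p = 0.0431), a call lost without any single *Asgr1*-/- liver (0.0926 to 0.175) or with limma on FPKM (0.0746 and 0.0843). *Pklr*, the liver pyruvate kinase, was at 1.01 and did not pass by edgeR (adjusted p = 0.0919). It passed in 3 of 17 alternative settings, among them DESeq2 (adjusted p = 0.000545). Of 13 fasting-induced genes 12 were tested and 0 passed by edgeR's adjusted p. At an unadjusted p under 0.05, 0 were higher and 1 was lower, where 8.2% of all tested genes were lower. DESeq2 passed 1 as lower, against 3.9% of all genes in either direction. In both counts it was *Cpt1a*, the mitochondrial importer that malonyl-CoA inhibits, at -0.38 (edgeR adjusted p = 0.140).

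Cholesterol synthesis, which draws on the same cytosolic acetyl-CoA and NADPH, had all 20 of its genes tested, and all 20 log2 fold changes were negative with a median of -1.11. Of these, 2 fell by edgeR's adjusted p, *Hsd17b7* at -1.51 (0.0215) and *Sc5d* at -0.93 (0.0467), 10 fell by DESeq2, and 19 did not overlap between genotypes. Over all tested genes DESeq2 passed 3.9% in either direction, and 21.9% did not overlap. The edgeR call of *Sc5d* was lost in 9 of 17 alternative settings and that of *Hsd17b7* in 6. Relative to the WT mean, the median log2 level of these 20 genes was 0.19, -0.11 and -0.04 in WT livers and -0.84, -2.06 and -0.70 in *Asgr1*-/- livers. The median of the 10 lipogenic and NADPH genes was 0.20, 0.02 and -0.18 in WT livers and 0.50, 0.01 and 0.23 in *Asgr1*-/- livers. *Asgr1*-/- liver 2 was thus the lowest of the 6 in cholesterol synthesis and also lowest in *Acss2* and *Acly*, whereas its *Fasn* and *Thrsp* were above the WT mean. Of 12 pericentral and 12 periportal hepatocyte markers, all were tested and 0 passed by edgeR's adjusted p, with 3 lower pericentral genes, 2 higher and 3 lower periportal genes at an unadjusted p under 0.05, and 1 pericentral and 3 periportal genes lower by DESeq2. At that unadjusted p, 7.29% of all tested genes were higher and 8.2% lower, and DESeq2 passed 3.9% in either direction.

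**Figure D5:**
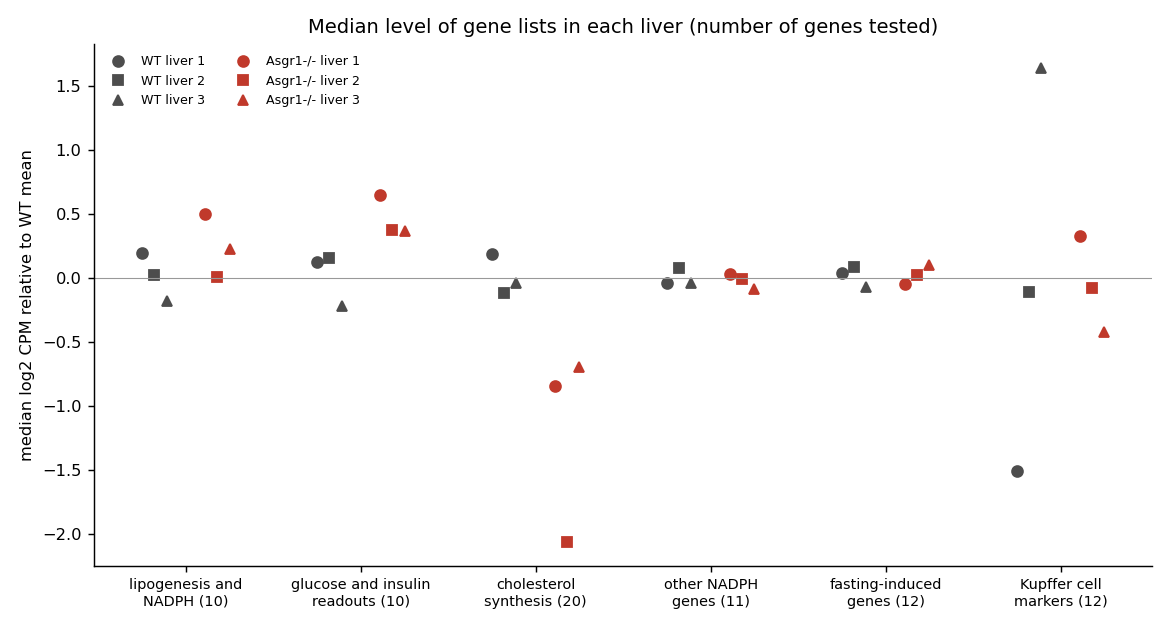
Median log2 CPM of 6 gene lists in each liver, as a difference from the WT mean, with the number of genes tested in parentheses. The lipogenesis list overlaps between genotypes, the cholesterol synthesis list is lower in all 3 *Asgr1*-/- livers, and the Kupffer cell markers range from -1.51 to 1.65 among WT livers alone.

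Across the 6 livers, the 10 genes did not all follow 1 profile. Correlation with the mean centred log2 CPM of the 10 genes, given as a description over 6 livers in which each gene is part of the mean, was 0.95 for *Scd1*, 0.91 for *Me1*, 0.86 for *Acacb*, 0.81 for *Acaca*, 0.76 for *Thrsp* and 0.76 for *Fasn*. It was 0.57 for *Pgd*, 0.34 for *Acss2*, 0.29 for *Acly* and -0.64 for *G6pdx*. Levels entered this mean without scaling by each gene's spread, so *Scd1* and *Thrsp*, with the widest spread in WT, weighed most. The acetyl-CoA producing genes and *G6pdx* had the lowest correlations with the mean. Among other tested genes the 8 closest to it were *Lrrfip2* (r = 0.99), *Tmem167* (0.97), *Gm16174*, *Gm44744*, *Ap5s1*, *Tiprl*, *Fkbp3* and *Alg2* (0.94), picked from all 10167 tested genes, and the lowest edgeR adjusted p among them was 0.600, for *Alg2*.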

How the data were processed

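RNA was extracted from whole liver and sequenced with 1 library per mouse, and GENEWIZ processed the reads. The submitters' notes name GRCm38 and DESeq2 1.6.3, while aligner, counter and strand setting were not given in the sources used here. Whole-number read counts were deposited for each gene beside FPKM values that the authors derived, and FPKM recomputed from counts, exonic length and library totals matched theirs within 0.005. Gene ontology columns were not used. Gene IDs were matched to GENCODE M21 of GRCm38 (99.5% found). Replicates of a genotype differed well beyond sampling noise (chi-square over its degrees of freedom 17.5 to 48.8).

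Counts were tested with edgeR 4.0.16 (quasi-likelihood F test, two-sided, TMM, no covariate, R 4.3.3) in genes whose FPKM averaged at least 1, and p-values were adjusted by Benjamini-Hochberg over all 10167 tested genes. A call required both a fold above 1.5 and an adjusted p under 0.05, and counts over related lists use the adjusted p alone. The code was tested on simulated data. Alternatives were other scalings and filters, DESeq2 1.42.0, limma 3.58.1 on counts (voom) and on log2(FPKM + 0.1) or log2(FPKM + 1), a replicate block, and leaving out each liver. List levels per liver are medians of log2(CPM + 0.5).

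All 10 members, the genes of each related list that passed or had the smallest p (up to 4), and the 8 genes most alike were to be named, and a gene that this rule would name is not reported here. The members and the lists were chosen with earlier results of these data known.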

Additional observations from a re-analysis of the deposited data

How the results depend on the processing

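The direction of *Acss2*, *Acly*, *Acaca*, *Acacb*, *Fasn*, *Thrsp*, *Me1* and *Pgd* held in all 17 alternatives. *Scd1*, -0.08 in edgeR, turned positive with voom (0.035), with limma on log2(FPKM + 0.1) (0.092) or log2(FPKM + 1) (0.090) and with the replicate block (0.031), and ranged from -0.48 to 0.50 with 1 liver left out, with positive values once WT liver 1, knockout liver 2 (0.17) or knockout liver 3 (0.030) was removed. *G6pdx* ranged from -0.66 to 0.034 with 1 liver left out. The cause was not tested. Of the 10 genes, 0 were called by edgeR, 1 (*Acss2*) by DESeq2 and 2 (*Acss2* and *Thrsp*) without the filter on low expression, and 2 (DESeq2) and 3 (no filter) passed the adjusted p at any fold. Genes higher at an unadjusted p under 0.05 numbered 3 with library size only, 3 without the filter, 2 with a mean FPKM of at least 0.1, and 1 to 3 with 1 liver left out (3 without WT liver 1 or *Asgr1*-/- liver 2). Genes without overlap numbered 4 with library size only or on FPKM with either added constant, and 2 to 6 with 1 liver left out (6 without WT liver 1, 5 without *Asgr1*-/- liver 2, where fewer livers make separation easier). On FPKM 22.9% of all tested genes did not overlap. For the other overlap counts, and for the unadjusted counts in any alternative, the share over all tested genes was not computed. Those counts are therefore a description and not a result about the 10 genes. Over all genes, 30 calls became 465 without the filter, 70 with a mean FPKM of at least 0.1, 248 with DESeq2, 80 with robust estimation, 11 and 16 with limma on FPKM with 0.1 and 1 added, and 3 to 288 with 1 liver left out (288 without WT liver 3, 52 without WT liver 1, 11 without WT liver 2, 5 without *Asgr1*-/- liver 2, 3 without either other knockout liver).

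Same-numbered livers did not deviate together (r = -0.17, 0.02 and -0.03), and the numbers are taken as labels only. The replicate block gave 23 calls over all genes, 0 of the 10 genes, 2 of them higher at an unadjusted p under 0.05, and left *Fads2* (0.0546), *Pfkfb3* (0.0546) and *Sc5d* (0.0685) above the threshold while *Elovl6* passed (0.0428). Depth limited *G6pdx* most, with at most 116 reads per liver.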
